A study of Mus musculus with 8 samples.

Results

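Genes named for striated or cardiac muscle were followed through cells of the mouse ascending thoracic aorta. The set holds 7 of the 32285 genes in the deposited matrix: the troponin genes Tnnt2, Tnnc1 and Tnni3, the myosin light chain genes Myl7 and Myl4, the kinase gene Mylk4 and the F-box gene Fbxl22. They were selected on their measured levels in smooth muscle, fibroblast, endothelial and mesothelial barcodes of these same data and on how often pairs of them were detected together. Those levels and shares are therefore given as a description, without a test. Aortas of 3 wildtype mice, 11, 12 and 13 weeks old, were dissociated and profiled by droplet single-cell RNA sequencing, each age carrying its own antibody hashtag. Strain and sex are not given in the sources used here, no treatment is named, and there is 1 mouse per age.

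Striated muscle switches its thin filament on through the troponin complex, in which troponin C binds calcium, troponin I holds the filament off and troponin T anchors the complex to tropomyosin. Vascular smooth muscle is classically described as contracting without troponin: calcium activates myosin light chain kinase, which phosphorylates the regulatory light chain of smooth muscle myosin, while calponin and caldesmon restrain the actin filament. The smooth muscle of the ascending aorta comes from the second heart field and the neural crest, embryonic sources that also contribute to the outflow tract of the heart.

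Barcodes with at least 500 genes, at most 20% mitochondrial unique molecular identifiers (UMIs, counted molecules) and fewer than 10 haemoglobin UMIs were kept, 9939 of 48467. A barcode entered the smooth muscle (SMC) group when Acta2, Tagln and Myh11 made up at least 1.5% of its UMIs. The fibroblast group needed Dcn at 0.3% or more, the endothelial group 3 UMIs of Pecam1, Cdh5 and Gpihbp1, and the mesothelial group 2 UMIs of Upk3b, Msln and Muc16. Barcodes that passed several gates, 435 in all, were dropped. This left 6731 SMC barcodes with a median of 7315 UMIs, 1371 fibroblast barcodes with 4532, 705 endothelial barcodes with 2603 and 13 mesothelial barcodes with 4672. All 6 fixed smooth muscle markers were detected in the SMC group, with a summed level of 36070 CPM (the counts-per-million scale, gene UMIs scaled to the total of the group), against 2852 CPM in the fibroblast and 4216 CPM in the endothelial group. HTODemux gave a single hashtag to 1411 SMC, 275 fibroblast and 525 endothelial barcodes, and 4521 SMC barcodes carried no hashtag signal above its threshold. Barcodes of the 4 gene expression libraries carry 1 common suffix in the matrix, which hides the library of each and leaves no count of barcodes that libraries share.

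Promoters were read from the RefSeq table of build GRCm38.p6, in which all 7 symbols matched. The 3 sequences printed here are each the 250 bases before a listed start of transcription. They belong to Tnnt2 and Fbxl22, which were well detected in smooth muscle and held motif matches, and to Myl7. Among kept barcodes Myl7 was detected mainly outside smooth muscle. Capitals mark matches, on either strand, to a CArG box (the element bound by serum response factor), to an MCAT element (CATTCC, bound by TEAD factors) or to a GATA site (AGATAA or TGATAA). The windows lie at chr1:135836084-135836333 on the plus strand for Tnnt2, chr9:66514594-66514843 on the minus strand for Fbxl22 and chr11:5898783-5899032 on the minus strand for Myl7.
Tnnt2: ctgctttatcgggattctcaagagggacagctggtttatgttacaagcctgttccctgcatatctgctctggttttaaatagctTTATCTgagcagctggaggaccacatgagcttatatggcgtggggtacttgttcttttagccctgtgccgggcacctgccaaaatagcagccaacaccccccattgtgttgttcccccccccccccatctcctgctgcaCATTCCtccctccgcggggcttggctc
Fbxl22: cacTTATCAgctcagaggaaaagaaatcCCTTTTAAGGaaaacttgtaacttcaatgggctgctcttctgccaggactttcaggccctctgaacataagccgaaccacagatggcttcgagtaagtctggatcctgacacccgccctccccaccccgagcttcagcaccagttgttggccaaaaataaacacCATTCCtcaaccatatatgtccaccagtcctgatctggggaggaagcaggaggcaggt
Myl7: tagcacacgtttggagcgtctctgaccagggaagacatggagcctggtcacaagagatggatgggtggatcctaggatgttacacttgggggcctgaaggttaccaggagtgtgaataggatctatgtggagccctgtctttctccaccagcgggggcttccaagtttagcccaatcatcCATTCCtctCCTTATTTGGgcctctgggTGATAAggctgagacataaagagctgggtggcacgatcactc
In Tnnt2 the MCAT element lay 27 to 22 bases before the listed start and the GATA site 166 to 161 bases before it. Fbxl22 had a CArG box at 222 to 213, an MCAT element at 58 to 53 and a GATA site at 247 to 242 bases before its start. In Myl7 the 3 matches lay close together, the MCAT element at 70 to 65, the CArG box at 61 to 52 and the GATA site at 42 to 37 bases. Among 32851 RefSeq promoters of this length, 1.47% held a CArG box, 12.6% an MCAT element and 16.6% such a GATA site. A MEF2 site was found in 0.508% of them and in none of the 7 genes' windows, and a TATA box (TATAAA or TATATA) in 11.5%. Tnnc1 had an MCAT element and a TATA box, whereas the other listed Tnnt2 start and the windows of Mylk4, Myl4 and Tnni3 held no match to these letters. The listed starts of Mylk4 (window chr13:32783965-32784214, minus strand) and Myl4 (window chr11:104550413-104550662, plus strand) lie inside the annotated genes, so their outermost starts were not searched. The listed start of Tnni3 (window chr7:4522529-4522778, minus strand) also lies inside its gene, which reaches position 4522718. The bases before its outermost start were therefore searched only in part. The printed Tnnt2 window ends at position 135836333, inside the annotated gene, which begins at 135836315. Its last bases are thus gene bases, and the Tnnt2 distances count from the listed start.

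Tnnt2 (ENSMUSG00000026414, chr1:135836315-135852268) encodes cardiac troponin T, which ties the troponin complex to tropomyosin. It was at 169 CPM in the SMC group (95% counting interval 166 to 173, 8446 UMIs). In the 3 hashtag samples the SMC level was 199, 157 and 164 CPM, the fibroblast level 13.4, 8.73 and 6.58 CPM and the endothelial level 34.1, 17.4 and 13.4 CPM. Every SMC sample lay far above every fibroblast and endothelial sample, while the highest fibroblast and the lowest endothelial sample met at 13.4 CPM. The level over all fibroblast barcodes, 20.9 CPM, was above each of the 3 fibroblast hashtag samples, which held 8, 3 and 3 UMIs, and a single fibroblast barcode held 34 of the 138 Tnnt2 UMIs of that group. The level over all endothelial barcodes was 21.9 CPM. The SMC mean was 174 ± 22.7 CPM (SD, n = 3), and the log2 fold change was 4.21 against fibroblast and 3.16 against endothelial sums. At least 1 Tnnt2 UMI was found in 29.1% of SMC barcodes (exact binomial interval 28.0 to 30.2%), in 5.76% of fibroblast and in 5.82% of endothelial barcodes. With every barcode thinned to 1000 UMIs, the shares were 10.4%, 1.31% and 2.27%.

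Mylk4 (ENSMUSG00000044951, chr13:32700824-32806773) encodes a member of the myosin light chain kinase family related to the cardiac enzyme. Its SMC level was 598, 582 and 627 CPM in the 3 hashtag samples (602 ± 23.2 CPM, SD, n = 3), its fibroblast level 41.9, 46.6 and 35.1 CPM and its endothelial level 94.1, 87.1 and 49.1 CPM. The SMC samples again stood apart, and each endothelial sample was above each fibroblast sample. The log2 fold change of Mylk4 was 3.95 against fibroblast and 3.15 against endothelial sums. A Mylk4 UMI was present in 87.5% of SMC, 16.4% of fibroblast and 15.9% of endothelial barcodes, or 42.7%, 4.23% and 6.38% after thinning to 1000 UMIs.

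Fbxl22 (ENSMUSG00000050503, chr9:66508459-66514593) encodes an F-box protein described in heart muscle, where it marks sarcomeric proteins for degradation. The SMC level was 552, 560 and 507 CPM in the 3 hashtag samples (540 ± 28.3 CPM, SD, n = 3). Fibroblast samples were at 43.5, 55.3 and 43.8 CPM and endothelial samples at 53.5, 46.4 and 64.0 CPM, so these groups overlapped each other and not the SMC samples, with log2 fold changes of 3.59 and 3.43. The share of barcodes with a UMI was 88.1%, 16.6% and 15.7% in SMC, fibroblast and endothelial barcodes, and 38.5%, 4.52% and 6.24% after thinning.

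Myl4 (ENSMUSG00000061086, chr11:104546017-104587215) encodes the essential light chain of atrial and embryonic muscle. It was sparse, with 640 UMIs and 12.8 CPM in the SMC group, 30 UMIs and 4.54 CPM in fibroblast and 14 UMIs and 5.69 CPM in endothelial barcodes. The SMC hashtag samples were at 12.6, 19.0 and 12.7 CPM, the fibroblast samples at 1.67, 2.91 and 0 CPM and the endothelial samples at 8.11, 5.80 and 1.49 CPM. SMC samples did not overlap either of the other groups, although the fibroblast and endothelial values rested on 5 UMIs or fewer in each sample.

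The remaining cardiac genes were close to undetected in the SMC group. Myl7 (ENSMUSG00000020469, chr11:5896637-5898782), the regulatory light chain gene of the atrium, had 48 UMIs there, or 0.961 CPM, with 0.493, 0.999 and 1.08 CPM in the hashtag samples. Tnnc1 (ENSMUSG00000091898, chr14:31208312-31211729), the troponin C gene of heart and slow muscle, had 38 UMIs and 0.761 CPM, and Tnni3 (ENSMUSG00000035458, chr7:4518305-4522718), the cardiac troponin I gene, had 26 UMIs and 0.521 CPM. Fibroblast barcodes held 7 UMIs of Myl7, 7 of Tnnc1 and 8 of Tnni3, which is 1.06, 1.06 and 1.21 CPM. Over all barcodes the SMC level of these genes was thus no higher than the fibroblast level, and none was read as expressed in smooth muscle. In the hashtag samples Tnnc1 differed from this. It was at 0.739, 0.333 and 0.808 CPM in SMC, from 3, 1 and 3 UMIs. It was at 0 in all fibroblast and endothelial samples, whose sums hold fewer UMIs. In endothelial barcodes Tnnc1 had 0 UMIs, which allows up to 1.22 CPM (3 counts), Tnni3 had 1 UMI and Myl7 had 7 UMIs. Described by these levels, which also chose the set, Tnnt2, Mylk4 and Fbxl22 were genes of the SMC group, and Myl7, Tnnc1 and Tnni3 were not. Myl4 was less set apart. It was highest in the SMC samples at a low level, and its fibroblast and endothelial levels were 35.4% and 44.4% of its SMC level. The counting intervals and limits given here cover counting error only.

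**Figure D1:**
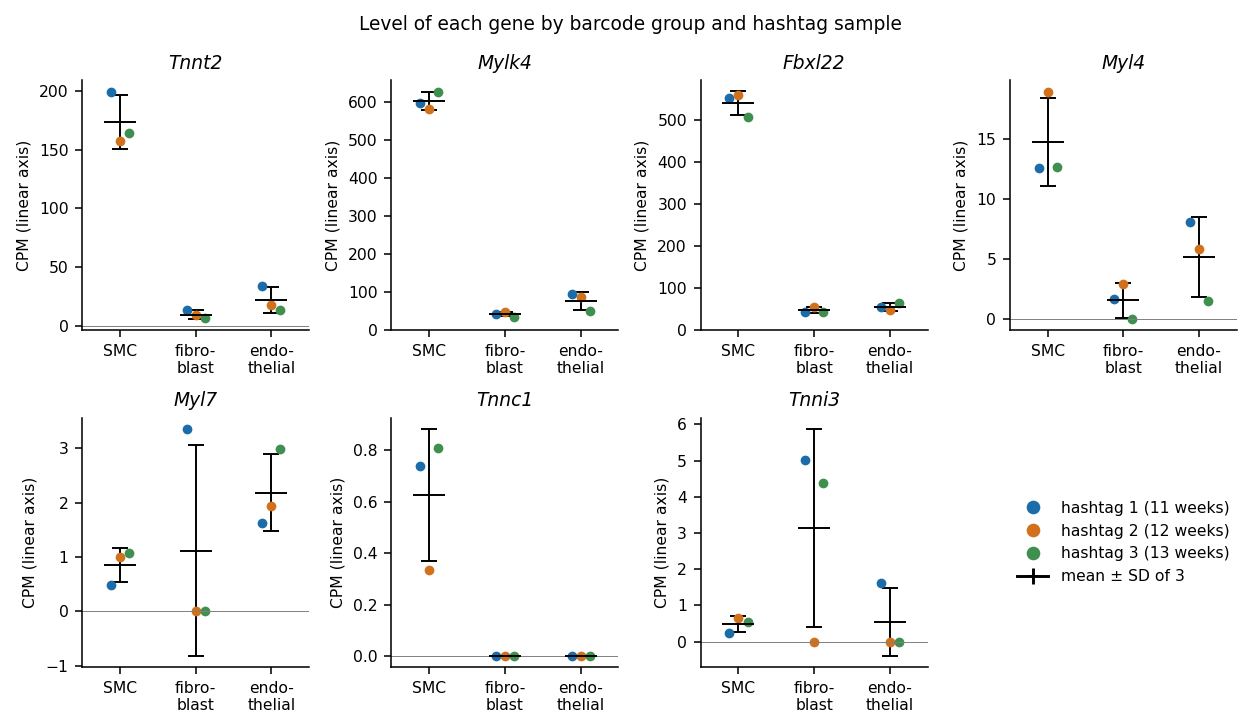
Level of each of the 7 genes in CPM (linear vertical axes, which differ between panels) in the SMC, fibroblast and endothelial groups; points are the 3 hashtag samples and bars the mean ± SD. Tnnt2, Mylk4, Fbxl22 and Myl4 were highest in all 3 SMC samples, whereas SMC values of Myl7 and Tnni3 lay at or below 1.08 CPM among scattered values of the other groups. Tnnc1 was at 0.333 to 0.808 CPM in SMC samples and at 0 in the samples of the other groups.

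Since there is 1 mouse per age, no test between ages was possible, and no gene of the set moved in 1 direction across all groups. In SMC samples Tnnt2 was highest at 11 weeks (199 CPM), Myl4 at 12 weeks (19.0 CPM) and Mylk4 at 13 weeks (627 CPM). For Tnnt2 and Mylk4 these differences were small beside those between cell groups, and for Myl4 they were of similar size.

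RNA of smooth muscle genes was found in every other group, and the level of each gene there was set against its own SMC level. The fibroblast level was 12.3% of the SMC level for Tnnt2 (counting interval 10.4 to 14.6%), 8.48% for Mylk4 (7.61 to 9.42%) and 8.11% for Fbxl22. The same ratio ran from 7.66% to 91.3% over 23 contractile genes outside the gate, with a median of 14.2%, and was 8.33% for Acta2, 6.50% for Tagln and 7.69% for Myh11. In the endothelial group the ratio was 13.0% for Tnnt2, 11.9% for Mylk4 and 10.6% for Fbxl22, against a median of 19.1% over the contractile genes. Tnnt2, Mylk4 and Fbxl22 in the other groups thus lay below the median smooth muscle gene there, and were not read as expression by fibroblasts or endothelial cells. Myl4 was at 35.4% (23.9 to 50.6%) in fibroblast and 44.4% in endothelial barcodes, above the median contractile gene in both. The 3 fibroblast hashtag samples of Myl4, at 1.67, 2.91 and 0 CPM, all lay below the 4.54 CPM of all fibroblast barcodes, so the fibroblast ratio is lower in them.

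**Figure D2:**
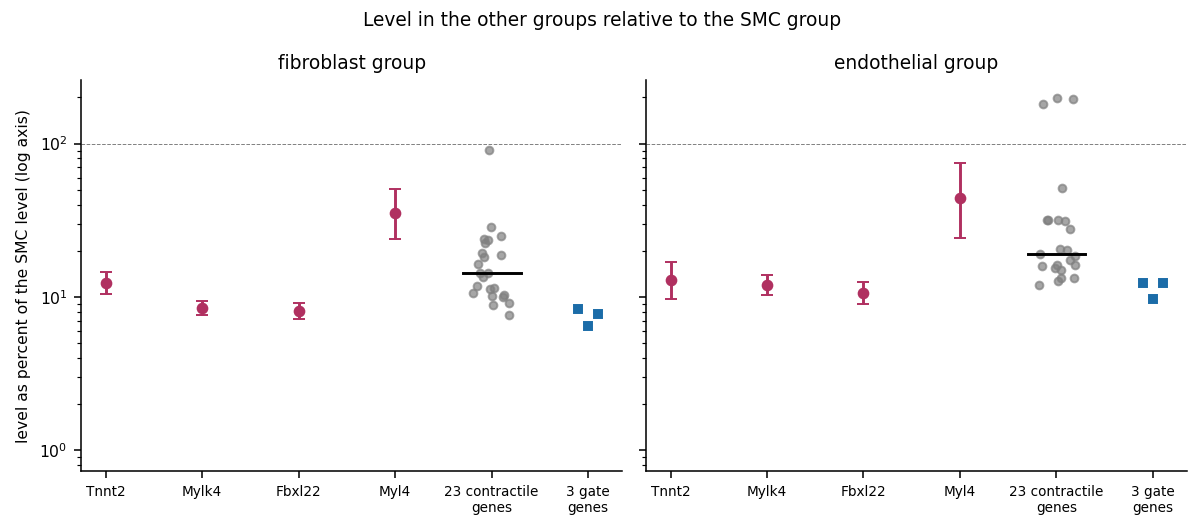
Level in the fibroblast group (left) and endothelial group (right) as a percent of the SMC level, on a log axis; points with bars are genes of the set with 95% counting intervals, grey points 23 contractile genes with their median as a line, and squares the 3 genes of the SMC gate. Tnnt2, Mylk4 and Fbxl22 sit below the contractile median of 14.2% and 19.1%, and Myl4 sits above it at 35.4% and 44.4%.

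Levels were read just outside and just inside each gate. Barcodes with 1 to 1.5% of UMIs from the gate genes (265, in no group) held Tnnt2 at 75.2 CPM, Mylk4 at 302 CPM and Fbxl22 at 228 CPM. Barcodes just inside, with 1.5 to 2% (621), held 130, 443 and 325 CPM, each above its value outside and below the level of the whole SMC group. Myl4 was at 9.22 CPM just outside and 9.11 CPM just inside. At the fibroblast gate, 29 barcodes just outside held Tnnt2 at 6.60 CPM and 43 just inside at 75.9 CPM, from 1 and 18 UMIs, while Mylk4 was at 66.0 and 139 CPM and Fbxl22 at 99.0 and 46.4 CPM. The endothelial gate separated 29 barcodes with Tnnt2 at 8.92 CPM from 39 with 28.3 CPM, resting on 1 and 4 UMIs, while Mylk4 was at 178 and 77.7 CPM and Fbxl22 at 161 and 56.5 CPM. Just outside the mesothelial gate, 2 barcodes with 1 UMI held none of the 7 genes. At the 3 gates other than the SMC gate the values rest on 20 UMIs or fewer, apart from 33 Mylk4 UMIs, and had no common direction.

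Within the SMC group the genes were spread differently over the barcodes. Tnnt2 had 0 UMIs in 4771 of 6731 barcodes, 1 UMI in 720, 2 to 4 in 686, 5 to 9 in 337 and 10 or more in 217. Those 217 barcodes, 3.22% of the group, carried 43.7% of its Tnnt2 UMIs, and the highest count in a barcode was 56. The variance of Tnnt2 was 10.6 times its mean. Mylk4 and Fbxl22 were spread more evenly: the variance was 3.36 and 2.92 times the mean, and barcodes with 10 or more UMIs carried 29.5% and 21.8% of the UMIs. The intermediate filament gene Des, with 4258 UMIs, was at 8.48 times its mean with 83.4% of barcodes at 0, and 33.8% of its UMIs lay in barcodes with 10 or more. The smooth muscle actin gene Actg2, with 9725 UMIs the closest in count to Tnnt2 of the contractile genes read, was at 3.46 times its mean. Ptprz1, a receptor tyrosine phosphatase gene, was at 3.45 times its mean. Myl4, Myl7, Tnnc1 and Tnni3 had variances of 1.08 to 1.30 times their means and at most 5 UMIs in any SMC barcode.

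**Figure D3:**
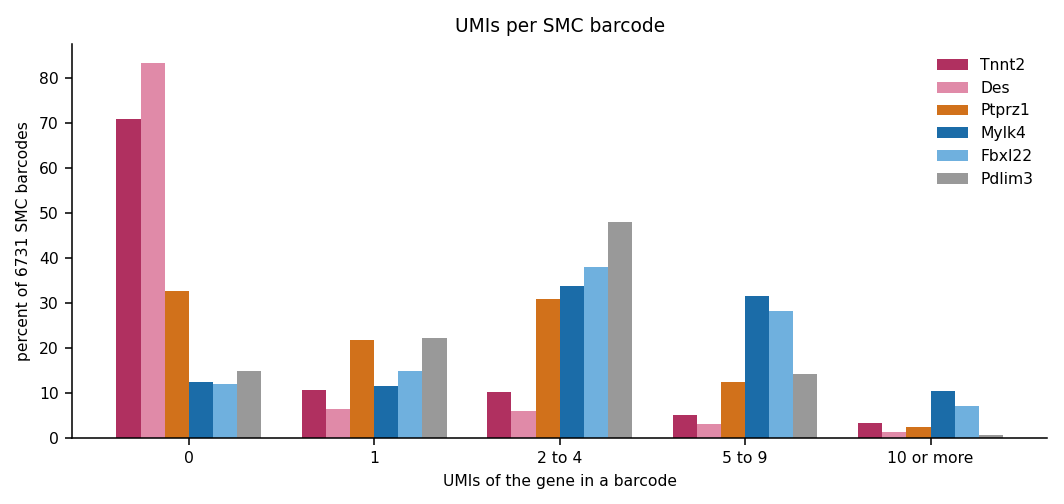
Percent of 6731 SMC barcodes (vertical axis, from 0) that held 0, 1, 2 to 4, 5 to 9 or 10 or more UMIs of a gene. Tnnt2 and Des left 70.9% and 83.4% of barcodes at 0 with a tail of 10 or more UMIs, whereas Mylk4, Fbxl22 and the contractile gene Pdlim3 left 12.5%, 11.9% and 14.9% at 0.

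Tnnt2 changed steadily with depth and with mitochondrial share, Mylk4 steadily with depth only, and Fbxl22 steadily with neither. With SMC barcodes ordered by depth and cut into 3 equal groups, from shallowest to deepest, Tnnt2 stood at 140, 168 and 184 CPM, Mylk4 at 520, 607 and 664 CPM and Fbxl22 at 530, 540 and 526 CPM. With 3 equal groups by mitochondrial share, from lowest to highest, Tnnt2 stood at 192, 170 and 136 CPM, Mylk4 at 626, 627 and 580 CPM and Fbxl22 at 534, 551 and 505 CPM. The part of depth and mitochondrial share in the results was not tested.

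Pairs of the set were compared for detection in the same barcode after 6667 SMC barcodes were thinned to 2000 UMIs each. Mylk4 was detected in 62.4% of barcodes with a Tnnt2 UMI and in 62.5% of those without. Fbxl22 was detected in 62.7% with and 57.9% without, and Myl4 in 2.61% with and 2.36% without. Mylk4 and Fbxl22 were found together in 2455 barcodes, 1.00 times the number given by the product of their shares, and for Tnnt2 with Fbxl22 the ratio was 1.07. In the 3 hashtag samples, thinned in the same way, Fbxl22 was detected in 70.6%, 65.2% and 63.6% of barcodes with a Tnnt2 UMI and in 59.3%, 56.0% and 55.7% of those without. The Fbxl22 share was higher beside Tnnt2 in every sample, while the Mylk4 share was 56.5%, 62.3% and 62.3% with and 62.3%, 57.8% and 66.2% without, in no constant direction. Over single-hashtag barcodes together the Mylk4 share was 56.8% with and 62.1% without. It was 59.1% and 63.2% at 1000 or more genes, and 59.5% and 64.2% at 10% or fewer mitochondrial UMIs. An SMC gate of 3% gave 60.0% and 66.8%, and thinning to 4000 UMIs 78.7% and 81.3%. Unthinned counts gave 88.2% and 87.2%. These settings share barcodes, and the near equality of Mylk4 in the first did not hold across them. Pairs that involved Myl7, Tnnc1 or Tnni3 rested on 10 joint barcodes or fewer and were too sparse to describe.

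Levels were also read along the number of Tnnt2 UMIs in a barcode, from unthinned counts. From barcodes with 0 to those with 10 or more Tnnt2 UMIs, Fbxl22 stood at 505, 546, 581, 609 and 708 CPM, higher in each bin, with counting intervals that did not overlap between the first 2 bins or the last 2. Mylk4 stood at 621, 598, 608, 606 and 552 CPM and Myl4 at 12.6, 13.4, 12.6, 14.3 and 12.4 CPM, with no such course. The highest bin held the lowest Mylk4 level (520 to 586 CPM by counting error, against 613 to 630 CPM in the first), and 78.8% of its barcodes had a Mylk4 UMI against 87.2%. For the gate genes, Acta2 went from 14401 to 16112 CPM and Myh11 from 4862 to 5674 CPM between the end bins. Ptprz1 went from 275 to 369 CPM and Pln, the phospholamban gene, from 39.0 to 50.1 CPM. Median depth increased along the same bins from 7100 to 8602 UMIs and the median mitochondrial share fell from 10.0% to 8.86%, and the part of either was not tested.

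A genome-wide comparison asked which other genes differed between SMC barcodes with and without Tnnt2. Counts thinned to 2000 UMIs were summed for 96, 66 and 72 barcodes with a Tnnt2 UMI and 424, 328 and 416 without, in hashtag samples 1, 2 and 3. Barcodes were drawn anew for this thinning. The sums, given as TMM-scaled CPM, were tested with edgeR's quasi-likelihood test with the hashtag as a block. Of 5557 genes tested, Tnnt2 itself left out, 6 (0.108%) were called higher and 5 (0.09%) lower at a Benjamini-Hochberg adjusted p under 0.05. Without the hashtag block 3 genes were called higher and 2 lower. DESeq2 called 1 higher and 0 lower, as did the edgeR test without hashtag sample 1. Another thinning draw gave 13 higher, and unthinned counts gave 62 higher and 36 lower. Such p-values measure the spread between 3 samples from 1 mouse each, and thinning leaves genes of low level with few counts.

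Des, which encodes the muscle intermediate filament desmin, stood at 325, 155 and 339 CPM with Tnnt2 and at 43.2, 61.1 and 45.0 CPM without. All 3 samples rose, with no overlap (log2 fold change 2.51 ± 0.21 SE, edgeR adjusted p = 2.1e-30). It was called under all 13 alternatives tried, with log2 fold changes from 1.65 to 2.90. Psd, which encodes an exchange factor for the small GTPase ARF6, was at 93.6, 65.1 and 44.3 CPM with and 7.40, 12.9 and 10.0 CPM without Tnnt2 (log2 fold change 2.77, edgeR adjusted p = 3.9e-05). It also rose in every sample, and was called under 9 of 12 alternatives, losing the call under DESeq2, an SMC gate of 3% and without hashtag sample 1. Corin, the protease gene that heart muscle uses to activate natriuretic peptides, was at 33.0, 8.14 and 51.7 CPM against 1.23, 0 and 0 CPM (edgeR adjusted p = 0.024). Its level fell below that set for naming a gene, and it was chosen for mention after its values were seen. Corin gave a value under 5 of the 13 alternatives and kept its call under 4 of them, losing it under DESeq2. Under the others, which include leaving out each hashtag sample, it was not tested and so not called.

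The other genes called higher changed less. Cp, the ceruloplasmin gene, had a log2 fold change of 1.38 (edgeR adjusted p = 0.035), the BMP family ligand gene Bmp3 1.05 (0.042) and the microfibril-associated gene Mfap4 0.58 (0.00085). Mfap4 stood at 600, 611 and 502 CPM with and 358, 363 and 428 CPM without Tnnt2, without overlap between the sides. Cp kept its call under 2 of 12 alternatives, Bmp3 under 2 of 13 and Mfap4 under 8 of 13. Among the lower genes were the immediate early transcription factor genes Fosb, Fos and Egr1. Fosb was at 11.0, 0 and 7.38 CPM with and 67.8, 56.2 and 45.0 CPM without Tnnt2, Fos at 143, 122 and 148 against 302, 241 and 250 CPM, and Egr1 at 110, 179 and 88.5 against 271, 215 and 191 CPM. Each was lower in every sample, with edgeR adjusted p of 0.00022, 0.00052 and 0.0049, and kept its call under 8 of 12, 9 of 13 and 4 of 13 alternatives. Fabp4, a fatty acid binding protein gene, fell by 0.59 and Npnt, which encodes the integrin ligand nephronectin, by 0.40 on the log2 scale (edgeR adjusted p = 0.010 and 0.017), and these kept their calls under 6 and 4 of 13.

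**Figure D4:**
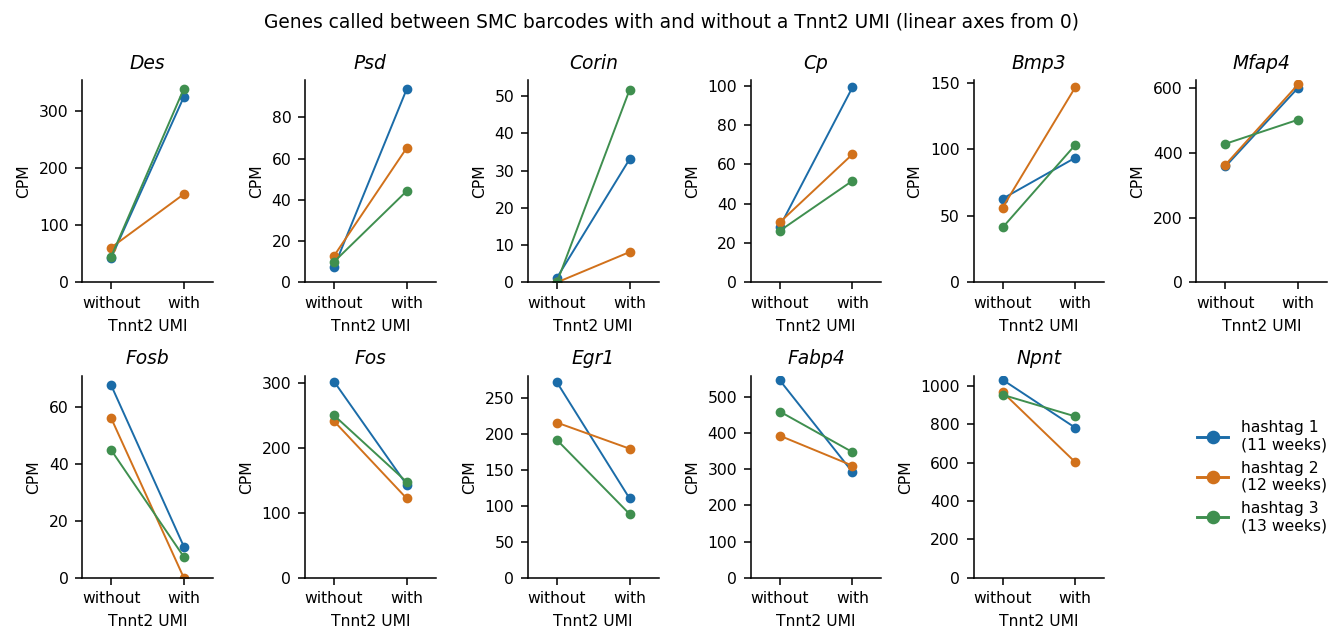
Level in CPM after thinning (linear axes from 0) in SMC barcodes without and with a Tnnt2 UMI; each line joins the sides of 1 hashtag sample, for the 6 genes called higher and the 5 called lower. Every line rises in the upper row and falls in the lower row, and Des goes from 43.2, 61.1 and 45.0 CPM to 325, 155 and 339 CPM.

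By function, 1 of 26 contractile genes (Des) rose and 0 fell. The median log2 fold change of the contractile list was 0.10, against 0.01 over all genes tested. Of the dissociation stress list 3 of 12 genes fell (Fosb, Fos and Egr1) and 0 rose, with a median of -0.32. No gene was called among 7 striated sarcomere genes, 14 calcium cycling genes, 16 transcription factor genes and 12 protein turnover genes tested. At an unadjusted p under 0.05 these 4 lists had 1, 0, 0 and 1 genes higher and 0 lower, the contractile list had 7 of 26 higher and 0 lower, and the stress list had 7 of 12 lower and 0 higher. Of the contractile genes 23 of 26 had a fold change above 0. The shares of all tested genes at that unadjusted p or with that sign are not given. Nothing is therefore read from these unadjusted and sign counts. DESeq2 called 1 gene higher and 0 lower over all genes tested. For 2 of the set, the values are a description, since pairs with Tnnt2 were used to choose them: Fbxl22 stood at 771, 643 and 679 CPM with and 547, 532 and 530 CPM without Tnnt2, higher in every sample. Mylk4 stood at 573, 725 and 657 CPM with and 604, 601 and 655 CPM without, overlapping.

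Markers of other cell types were compared on the same sides. All 16 fixed cardiomyocyte markers summed to 68.2 to 153 CPM in samples with Tnnt2 and 85.4 to 111 CPM without. Myh6, Myh7, Nppa, Nppb, Myl2, Myl3, Sln, Mybpc3, Csrp3 and Mb were at 0 on the side with Tnnt2. There 0 UMIs allow up to 6.41 CPM per gene (3 counts). All of these but Myh6, Myh7 and Mb were also at 0 on the side without, which has more barcodes and allows up to 1.28 CPM. Ttn, Actn2, Ryr2, Actc1, Ckm and Corin were detected on both sides. With and without Tnnt2, 6 of 16 and 9 of 16 markers were detected. Without Corin the sums were 60.6 to 104 CPM and 85.4 to 110 CPM. Pericyte markers summed to 687.5 to 803 CPM with and 878 to 992 CPM without, and macrophage markers to 7.58 to 20.8 and 33.0 to 51.8 CPM, lower beside Tnnt2 in all 3 samples. Brown adipocyte markers were at 0, 0 and 6.94 CPM with and 9.43, 7.62 and 12.0 CPM without Tnnt2, also lower in all 3. Beside Tnnt2 the brown adipocyte markers rested on 1 UMI in all and the macrophage markers on 6, against 23 and 95 without. SMC markers summed to 36385 to 37021 CPM with and 34538 to 35196 CPM without. The part of these markers in the calls was not tested. Median depth was 7673.5 UMIs with and 7414.5 without, and the median mitochondrial share 10.1% on both sides.

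The 11 genes were then read in SMC barcodes that had no single hashtag and had not entered the test (those with no hashtag call and those called for several hashtags, which may be doublets), 853 with and 4412 without a Tnnt2 UMI after thinning. These barcodes cannot be assigned to an animal, so no test was made and intervals cover counting error. Des was at 205 CPM (184 to 227) with and 61.8 CPM (56.7 to 67.2) without Tnnt2, and Psd at 72.1 and 11.3 CPM. Corin had 28 UMIs in 853 barcodes and 5 UMIs in 4412, and Cp was at 69.8 and 26.6 CPM. Fos was at 147 and 241 CPM and Npnt at 812 and 945 CPM. All 11 had the same direction as in the tested barcodes, with Fosb closer between the sides, at 29.9 CPM (22.3 to 39.3) and 44.4 CPM (40.1 to 49.0). Bmp3 was at 83.8 and 51.7 CPM, Mfap4 at 492 and 359 CPM, Egr1 at 154 and 192 CPM and Fabp4 at 233 and 313 CPM. Of the set, Fbxl22 was at 621 and 518 CPM there, and Mylk4 at 562 CPM (527 to 599) and 607 CPM (590 to 623).

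The same genes were ordered with the number of Tnnt2 UMIs over all 6731 SMC barcodes, which include the tested ones. Des stood at 44.7, 85.6, 151, 197 and 450 CPM in barcodes with 0, 1, 2 to 4, 5 to 9 and 10 or more Tnnt2 UMIs, and Psd at 6.81, 24.7, 44.6, 68.1 and 98.2 CPM. Corin was at 0.409, 1.47, 3.47, 5.94 and 41.8 CPM, so that most of it lay in the highest bin, where 16.6% of barcodes had a UMI. Fos was lower along the bins, from 256, 213 and 175 CPM to 94.3 and 93.0 CPM. The ryanodine receptor gene Ryr2, on the cardiomyocyte marker list, stayed between 69.7 and 83.7 CPM.

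**Figure D5:**
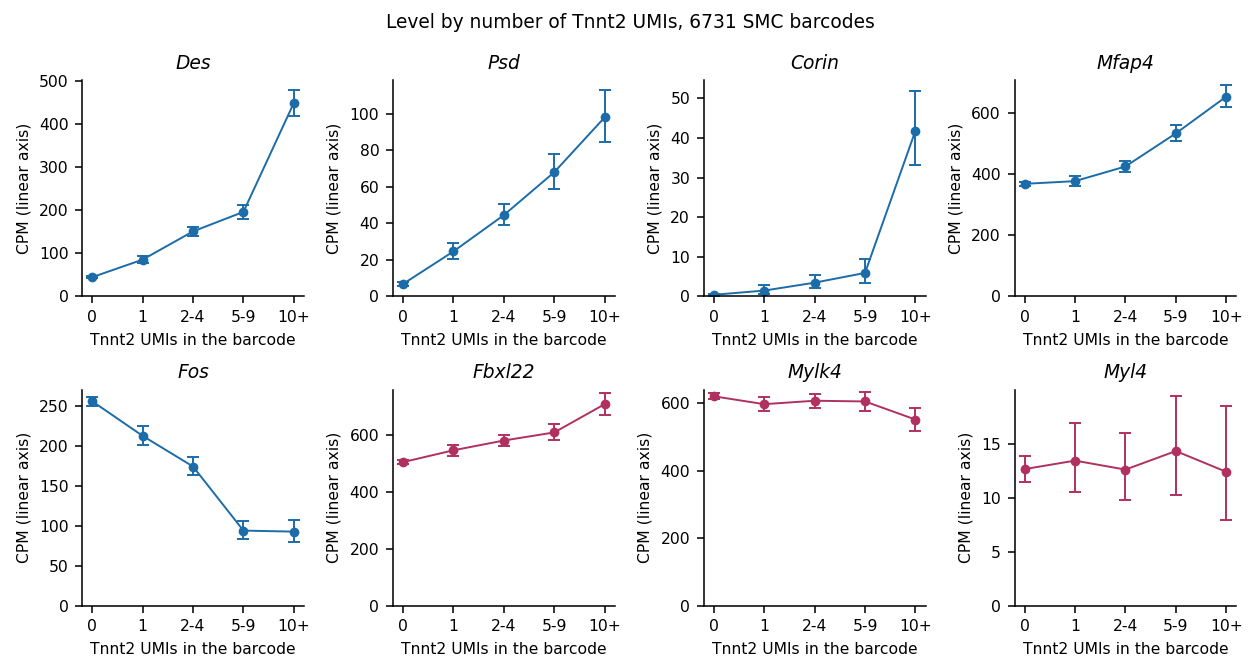
Level in CPM (linear axes from 0) against the number of Tnnt2 UMIs in the same barcode, for 6731 SMC barcodes in 5 bins; bars are 95% counting intervals. Des, Psd, Corin and Mfap4 are higher and Fos is lower in the last bin than in the first, Fbxl22 goes from 505 to 708 CPM, and Mylk4 and Myl4 show no steady course.

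Other muscle genes from fixed lists were set between the gated groups. Values with an SD in this and the next paragraphs are CPM scaled by edgeR's TMM factors. The gates themselves make this contrast, so the counts describe the groups and nothing is read from them. Against fibroblast barcodes, 20.6% of 8340 genes tested were called higher in SMC and 21.1% lower by edgeR, and against endothelial barcodes 28.8% and 25.7%. Of 40 striated sarcomere genes outside the set only 7 had enough counts to be tested, and Ldb3, Myom1, Xirp1, Tcap, Nexn, Flnc and Tmod1 were higher in SMC against both groups. Those 7 passed through their level in SMC, so the count is no support. The alignment gene Myom1 (M-band) was at 476 ± 27.6 CPM in SMC and 44.6 ± 21.8 CPM in fibroblast samples (SD, n = 3). In the same order, the Z-disc genes were at 119 ± 7.19 and 6.29 ± 6.04 CPM (Ldb3) and at 273 ± 21.8 and 30.8 ± 6.24 CPM (Tcap). Xirp1 was at 33.0 ± 5.35 and 2.92 ± 0.59 CPM. Of the whole list, 22 genes were under 1 CPM in SMC barcodes, among them the heart myosin genes Myh6 (0.240 CPM) and Myh7 (1 UMI) and the light chain gene Myl2 (0.140 CPM). The cardiac actin gene Actc1 was at 1.80 CPM, Actn2 at 7.09 CPM and the titin gene Ttn at 3.18 CPM.

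All 23 contractile genes outside the gate were higher than in fibroblast barcodes, and 20 were higher than in endothelial barcodes. Calponin (Cnn1) stood at 1553 ± 68.2 CPM in SMC, 130 ± 13.2 in fibroblast and 169 ± 44.9 in endothelial samples (SD, n = 3). In the calcium cycling list 14 of 15 tested genes were higher than in fibroblast and 13 than in endothelial barcodes, and Atp2b1, a plasma membrane calcium pump gene, was lower in both contrasts. The junctophilin gene Jph2 stood at 154 ± 8.01 CPM in SMC against 16.6 ± 6.79 in fibroblast samples, and Ryr2 at 84.7 ± 2.67 against 7.17 ± 1.30.

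Among transcription factor genes of muscle and outflow tract, 11 of 21 tested were higher and 5 lower than in fibroblast, and 15 higher and 5 lower than in endothelial barcodes. Myocd, the myocardin gene that partners serum response factor, stood at 148 ± 2.93 CPM in SMC, 9.19 ± 2.69 in fibroblast and 18.7 ± 6.19 in endothelial samples (SD, n = 3). Klf4 was lower in SMC, at 29.8 ± 4.74 CPM, than in fibroblast (249 ± 22.6) and endothelial samples (591 ± 119). The cardiac factor genes Gata4, Tbx5 and Nkx2-5 were at 1.24, 1.10 and 0.460 CPM in SMC barcodes, while Gata6, Hand2 and Mef2c were at 117, 82.8 and 364 CPM. In the protein turnover list, to which Fbxl22 relates by function, 8 of 15 were higher and 2 lower than in fibroblast, and 7 higher and 2 lower than in endothelial barcodes. The muscle F-box gene Fbxo40 was at 25.2 ± 1.90 CPM in SMC, 4.25 ± 1.10 in fibroblast and 1.14 ± 0.99 in endothelial samples, and the small heat shock gene Hspb6 at 184 ± 12.7, 11.7 ± 2.35 and 18.1 ± 3.25 CPM. Of 12 dissociation stress genes, 6 were higher and 3 lower than in fibroblast, and 3 higher and 8 lower than in endothelial barcodes.

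For likeness of pattern, Pearson's r of log2(CPM + 10) was taken over 9 sums (3 groups by 3 hashtag samples) with 6087 genes; the points share animals, libraries and the gates, and r is a description. Closest to Tnnt2 were Susd5, Fblim1 and Ramp1 (r of 0.993, 0.992 and 0.992), and closest to Mylk4 were Npnt, Col18a1 and Actn1 (r of 0.998, 0.996 and 0.996). Ppp1r14a, Tcap and Rasl12 were closest to Fbxl22 (r of 0.999, 0.996 and 0.996). Myl4, with 166 UMIs in these sums, was nearest to Atp5h, Mcur1 and Atp5k (r of 0.979, 0.969 and 0.949), none of them a contractile gene. Des, called with Tnnt2 within smooth muscle, was not among the closest across the groups.

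Among kept barcodes, Myl7 was found mainly in those with 2 or more UMIs of the mesothelial gate genes, which are genes of the serous lining. Barcodes that failed the filter, which were not gated, held 838 of the 1436 Myl7 UMIs of all barcodes. The 13 mesothelial barcodes held 130 Myl7 UMIs, or 2042 CPM (1706 to 2425), and 76.9% of them had a UMI, against 0.683% of SMC barcodes. Of these barcodes 2, 4 and 4 carried a single hashtag of the 3 samples. When all 64 barcodes with 2 or more mesothelial UMIs were taken, whatever other gate they passed, they held 490 of the 598 Myl7 UMIs of kept barcodes, 81.9%. The level was 188 CPM in barcodes with 2 to 4 mesothelial UMIs, 339 CPM with 5 to 9 and 1457 CPM with 10 or more. The same 64 barcodes held 0 UMIs of Myl4 and 0 of Tnnc1, which allows up to 6.98 CPM for each (3 counts), and 5 of Tnni3. Of those barcodes 34 had also passed the fibroblast gate, with Myl7 at 1397 CPM, and 15 the SMC gate, with 421 CPM. Tnnt2 was at 34.9 CPM, Mylk4 at 158 CPM and Fbxl22 at 186 CPM in all 64, below their SMC levels.

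Part of the Tnni3 UMIs, and a smaller part of the Tnnc1 UMIs, lay in a few barcodes with other cardiomyocyte genes. Over all 48467 barcodes, 12 held 10 or more UMIs of 14 cardiomyocyte markers outside the set, and these 12 carried 132 of 264 Tnni3 UMIs (50%) and 39 of 162 Tnnc1 UMIs (24.1%). They carried 13.0% of Myl7, 5.07% of Myl4 and 1.69% of Tnnt2 UMIs, and 0.0191% of Mylk4 and 0.0426% of Fbxl22 UMIs. In the kept barcode with the most varied cardiac counts, which passed no gate, there were 34 UMIs of Tnnt2, 40 of Myl7, 61 of Myl4, 16 of Tnnc1 and 25 of Tnni3, beside 36 of Actc1 and 18 of the sarcolipin gene Sln. That barcode held all 3 troponin genes and both light chain genes together but 0 UMIs of Mylk4 and 2 of Fbxl22. Of the 12 barcodes, 4 were in the SMC group, with 0 UMIs of Tnni3 and Tnnc1 in each. Some of the 12 reached the limit on a single marker gene.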

How the data were processed

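Cells of ascending thoracic aortas from 3 wildtype mice were dissociated enzymatically, depleted of dead cells and captured with 3′ droplet chemistry, giving 4 gene expression and 4 hashtag libraries. Per the file headers, Cell Ranger 6.0.1 produced the raw UMI counts per gene and barcode that the authors deposited as 1 matrix. The submitters' processing notes name Seurat 4.0.5 and build mm10. Dissociation, capture and the counting of reads in overlapping genes bear on the levels given.

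Hashtags were called with Seurat 5.3.0 (HTODemux, quantile 0.99), each standing for the mouse of 1 age. Barcodes with several hashtags were left out of sums per sample, no other doublet caller was run, and same-hashtag doublets remain. SMC sums held 3003765 to 4057971 UMIs per hashtag sample, fibroblast sums 343576 to 597047 and endothelial sums 516862 to 671851. Sums were tested with edgeR 4.0.16 (TMM, filterByExpr, glmQLFit, glmQLFTest, hashtag as block because each hashtag gives both sides of a comparison from the same mouse). Adjustment was by Benjamini-Hochberg at 0.05 over all genes tested, and DESeq2 1.42.0 was an alternative (R 4.3.3). Only Tnnt2, Mylk4 and Fbxl22 of the set passed the filter on low counts between groups. On simulated data, 2-fold changes were recovered for 48% of changed genes and 4-fold changes for 94% in the SMC against fibroblast comparison, and for 54% and 99% in the Tnnt2 comparison. Only genes above a limit on mean counts were changed, with the same dispersion for every gene and no hashtag effect. These recoveries therefore do not carry over to sparse genes such as Corin or to genes of larger spread.

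The members and gene lists were chosen with earlier results of these data known. Named were the 7 members. For the Tnnt2 comparison, the 8 highest and 8 lowest called genes with 1 direction in 3 of 3 hashtag samples and at least 50 CPM on the higher side were eligible. For each list, up to 4 called genes with the largest changes and at least 20 CPM were eligible. Corin and the genes given only by their level were chosen after their values were seen. Promoter sequences come from RefSeq, and positions are those of GRCm38.p6. A result on 1 list gene is not reported here.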

Additional observations from a re-analysis of the deposited data

Results flagged for a closer look

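Barcodes that failed the filter, which enter no comparison, held 193 Tnni3 UMIs (1.91 CPM over 38528 barcodes), against 26 in the SMC group (0.521 CPM). Of the 12 barcodes with 10 or more cardiomyocyte marker UMIs, 6 failed the filter. One of these, with 25.8% mitochondrial UMIs, held 82 Tnni3, 117 Myl7 and 169 Tnnt2 UMIs. Barcodes dropped for passing several gates held 362 Myl7 UMIs, against 48 in the SMC group.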

How the results depend on the processing

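Between groups, SMC against endothelial gave 2402 genes higher and 2146 lower. It gave 1597 higher with DESeq2, 1244 higher with the ratio-based hashtag call, and 1375 higher and 1288 lower with at most 10% mitochondrial UMIs. SMC against fibroblast gave 1717 higher and 1756 lower, and 1064 and 1152 at that mitochondrial limit. The comparison by Tnnt2 (6 higher, 5 lower) was less stable. DESeq2 gave 1 and 0, an SMC gate of 3% gave 2 and 0, and at most 10% mitochondrial UMIs gave 2 and 1. Another thinning draw gave 13 higher, at least 1000 genes gave 2 lower and no filter on low counts gave 15 lower. Thinning to 4000 UMIs gave 27 and 14, and no thinning 62 and 36. Leaving out a hashtag sample gave 1 to 6 higher and 0 to 5 lower, with the fewest without hashtag sample 1. Without the replicate block the paired comparison by Tnnt2 gave 3 higher and 2 lower, and the group comparisons 1640 and 1739 (fibroblast) and 2301 and 2107 (endothelial). The causes were not tested, and no named fold change reversed under the alternatives run. Of 581 alternative fold changes of named genes, 515 kept direction and side of the threshold. The set's own values were less stable. Of 252 alternative levels and shares of its genes, 168 stayed within the SD of the hashtag samples and 84 did not. Of 63 alternative co-detection ratios, 41 stayed within that SD and 22 did not. The ratio-based call could not be fitted for SMC against fibroblast or by Tnnt2, with fewer than 10 barcodes in a sample. Depth limits Myl7, Tnnc1, Tnni3 and Myl4, whose sums per sample hold few UMIs.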
